A study of Mus musculus with 15 samples.

Results

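Protamines and transition proteins are the small basic proteins that pack the DNA of the sperm head. As a round spermatid elongates, histones are removed from its chromatin, transition proteins take their place for a short time, and protamines then replace the transition proteins and condense the nucleus. Their genes are transcribed in round spermatids, and the mRNAs are stored and translated later, so the amount of mRNA in a testis follows the number of spermatids as well as the transcription in each of them. The 5 genes of the group in the mouse are Prm1 and Prm2, the 2 main protamines, Prm3, a related protein of the spermatid cytoplasm, and Tnp1 and Tnp2, the transition proteins. They were taken by name, and all 5 were found among the 23510 gene IDs of the table. All 5 were also among the 14514 genes with a mean of 1 FPKM or more over all libraries, which were the genes tested. FPKM is a fragment count corrected for gene length and for the total of the library, so levels of different genes can be compared.

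RNA was measured by sequencing in 15 testis libraries of ICR mice, an outbred stock, in 5 groups of 3. Lentivirus with short hairpin RNA (shRNA) was injected into the testes of mice of 5 weeks of age and testes were taken 10 days later, per the study's methods. The groups M1, M3 and M5 are labelled as knockdowns of 3 receptors for acetylcholine, the muscarinic receptors encoded by Chrm1, Chrm3 and Chrm5, each with 3 shRNAs mixed, and MNC is the virus control, called shNC in the study, with 1 sequence. Con is labelled as a control, and what these mice received is not given in the sources used here. The injection reaches a whole testis with many cell types, and 1 testis of a mouse gave the RNA. No label says that the libraries of a group came from separate mice, so p-values measure the spread between these libraries, which may be technical.

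The targeted transcripts do not check the group labels. Chrm5 was at 0.22 to 0.37 FPKM in M5 and 0.23 to 0.43 in MNC, Chrm1 at 0.09 to 0.14 in M1 and 0.1 to 0.11 in MNC, and Chrm3 at 0.04 to 0.11 in M3 and 0.01 to 0.05 in MNC, all below the filter on low values. Markers of testis cells were present, with the 10 Sertoli cell genes summing to 697.6 to 1208 FPKM and the 10 spermatocyte genes to 2585 to 3629 FPKM over the libraries. Markers of the epididymis, the duct next to the testis, summed to 21.8 to 47.6 FPKM over 7 genes in Con, to 2.22 to 32.5 in M3, and to 0.75 to 3.73 in MNC, M1 and M5. M3 replicate 3 stood apart from M3 replicates 1 and 2 in the results below, so some values are given with and without it. M5 replicate 3 stood apart in markers of other cell types (values given with those markers), and the M5 differences are also given without it.

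Of the 5 genes, 4 lie side by side on chromosome 16 and Tnp1 lies alone on chromosome 1. In the build GRCm38.p6 (mm10), all 5 are on the minus strand: Prm1 at chr16:10796332-10796823, Prm2 at chr16:10791377-10792105, Prm3 at chr16:10790508-10790914, Tnp2 at chr16:10787935-10788655, and Tnp1 at chr1:73015074-73015899. The longest transcripts in the GENCODE annotation have 2 exons in Prm1, Tnp1 and Tnp2, 3 in Prm2 and 1 in Prm3, with 410 to 674 nucleotides in all. The nearest coding neighbour of the cluster is Socs1, an inhibitor of cytokine signalling, at a mean of 3.75 FPKM over the 15 libraries, against 306.4 FPKM for Prm3, the lowest of the 5 genes.

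The 150 bases before each gene's start are shown because the 5 genes are switched on in the same cells. The sequences are RefSeq's for GRCm38.p6, 5′ to 3′ on the gene's strand, and the capitals mark matches to the letters TGANNTCA and TATAA, searched on both strands.
Prm1, chr16:10796824-10796973: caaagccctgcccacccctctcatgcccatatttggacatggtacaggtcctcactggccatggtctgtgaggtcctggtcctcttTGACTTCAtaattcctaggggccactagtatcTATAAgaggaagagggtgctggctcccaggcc
Prm2, chr16:10792106-10792255: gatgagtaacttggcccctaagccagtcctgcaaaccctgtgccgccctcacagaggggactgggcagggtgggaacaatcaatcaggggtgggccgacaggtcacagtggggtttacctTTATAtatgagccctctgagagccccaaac
Prm3, chr16:10790915-10791064: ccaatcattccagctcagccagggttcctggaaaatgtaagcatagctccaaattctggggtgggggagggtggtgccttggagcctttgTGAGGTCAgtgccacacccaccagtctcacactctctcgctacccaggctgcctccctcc
Tnp1, chr1:73015900-73016049: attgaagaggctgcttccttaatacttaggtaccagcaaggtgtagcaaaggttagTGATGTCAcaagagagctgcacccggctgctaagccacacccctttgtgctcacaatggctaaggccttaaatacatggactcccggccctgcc
Tnp2, chr16:10788656-10788805: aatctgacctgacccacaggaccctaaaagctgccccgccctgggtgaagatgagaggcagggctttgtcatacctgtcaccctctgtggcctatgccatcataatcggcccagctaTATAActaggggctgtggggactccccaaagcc
The letters TGANNTCA, which include the full cAMP response element TGACGTCA and many of its variants, stand in Prm1, Prm3 and Tnp1, and TATAA or its reverse complement TTATA stands in Prm1, Prm2 and Tnp2. In all 32851 windows of 250 bases before a gene start, 11.9% hold TGANNTCA, 22.8% hold TATAA on either strand and 1.55% hold TGACGTCA. These matches describe letters only.

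The main protamines were among the most abundant transcripts of the testis. Prm1 was the gene with the highest FPKM in 7 libraries and Prm2 in the other 8. Over the 15 libraries, Prm1 ranked between 1 and 2 of all genes, Tnp2 between 2 and 4, Prm2 between 1 and 6, and Tnp1 between 3 and 7. Prm3 was far lower and ranked between 95 and 523. Together the 5 genes held 1.98% to 5.45% of the summed FPKM of a library, with 1.98% to 3.90% in Con and 3.78% to 5.45% in the other 12 libraries.

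Prm1 was at 4559, 2951 and 5954 FPKM in Con replicates 1, 2 and 3, at 5636, 7258 and 7699 in MNC, at 7465, 6926 and 7194 in M1, at 5849, 6101 and 8076 in M3, and at 7981, 9026 and 6019 in M5. Con had the lowest mean but overlapped MNC and M3, and the 4 other groups overlapped each other. Prm2 was at 3060, 1915 and 4656 FPKM in Con, at 5486, 6948 and 6811 in MNC, at 7621, 7477 and 7213 in M1, at 5832, 6146 and 9231 in M3, and at 8597, 9811 and 6929 in M5. Every library of the other groups was above every Con library for Prm2, and M1 lay above MNC. Prm3 was at 185.8, 157.1 and 223.0 FPKM in Con, at 259.6, 338.5 and 317.3 in MNC, at 339.0, 253.1 and 321.9 in M1, at 234.7, 243.6 and 429.7 in M3, and at 435.2, 495.4 and 362.3 in M5. For Prm3, all 3 M5 libraries were above MNC and M1, and of M3 only replicate 3 reached the M5 range.

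Tnp1 was at 2443, 1666 and 3293 FPKM in Con, at 3256, 3795 and 4014 in MNC, at 3869, 3594 and 3759 in M1, at 3409, 3567 and 4639 in M3, and at 4322, 4813 and 3374 in M5. As for Prm1, Con had the lowest mean and the other groups overlapped each other. Con overlapped MNC but not M1, M3 or M5. Tnp2 was at 3795, 2614 and 4710 FPKM in Con, at 4256, 5493 and 6078 in MNC, at 5683, 5039 and 5091 in M1, at 4564, 4754 and 3475 in M3, and at 3221, 3661 and 2798 in M5. Tnp2 had another order than the other 4 genes. Its lowest group mean was that of M5, 3227 ± 431.1 FPKM (SD, n = 3), against 5276 ± 930.0 in MNC and 5271 ± 357.6 in M1, and M5 overlapped neither of these groups. M5 overlapped Con and M3, and the M3 libraries also lay below all M1 libraries. The other 4 genes had their highest group mean in M5 and their lowest in Con. Groups of 3 libraries that do not overlap give an exact permutation p of 0.1 at the least. How many of all genes tested also show no overlap was not counted, here or for Prm2 and Prm3.

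**Figure D1:**
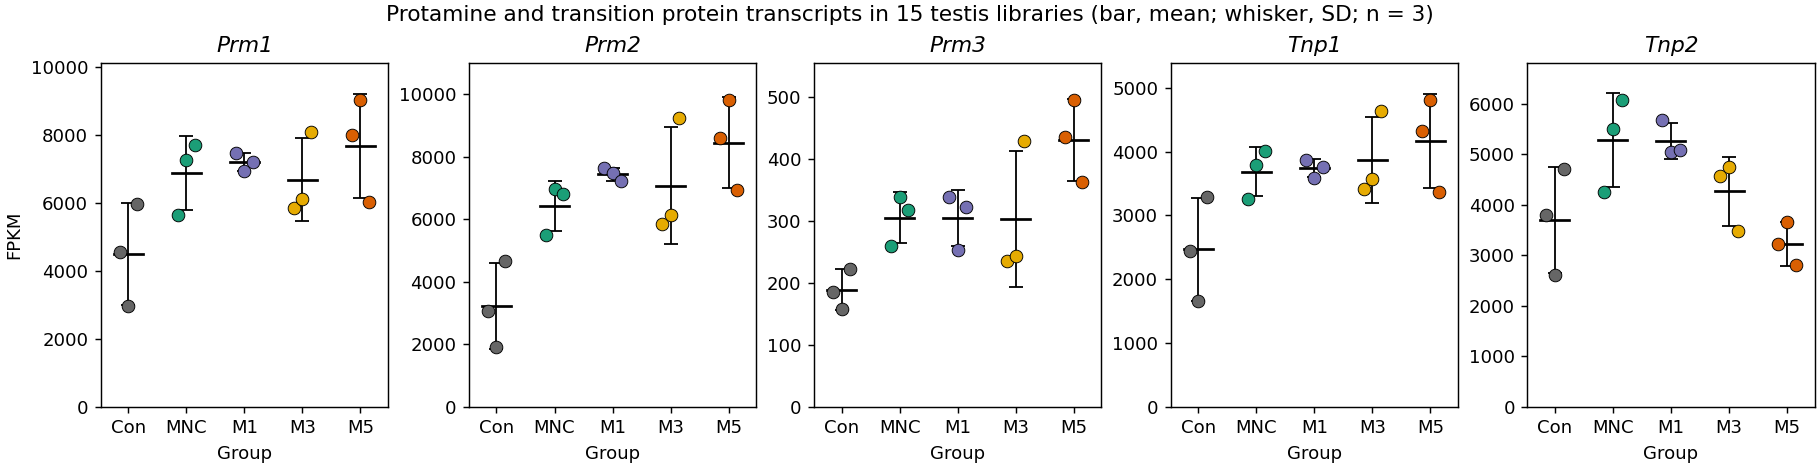
FPKM (linear axis from 0, a scale of its own for each gene) of Prm1, Prm2, Prm3, Tnp1 and Tnp2 in the 3 libraries of Con, MNC, M1, M3 and M5, with points for libraries, bars for group means and whiskers for the SD. The Con mean is the lowest for 4 of the genes, while for Tnp2 the 3 M5 libraries (2798 to 3661 FPKM) lie below all MNC and M1 libraries.

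The F test over the 5 groups asked whether a gene differed among them at all. limma passed Prm2 (adjusted p = 0.00858), Prm3 (0.0154), Tnp2 (0.04) and Tnp1 (0.0491), while Prm1 did not pass (0.0652). Over all genes tested 33.6% passed. Without M3 replicate 3 it was passed by Prm2, Prm3 and Tnp2. When a library was left out, the adjusted p of the F test was at most 0.0375 for Prm2. It ranged from 0.00214 to 0.06 for Prm3, 0.0233 to 0.0783 for Tnp2, 0.0169 to 0.192 for Tnp1 and 0.0288 to 0.247 for Prm1. With median centring it was 0.0639 for Tnp1 and 0.054 for Tnp2, and with no filter 0.125 and 0.117.

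M5 was set against MNC to see what differs after knockdown of that receptor, and none of the 5 genes passed the test, against 5.65% of all genes tested. At an unadjusted p under 0.05, 2 of the 5 differed, Tnp2 and Prm3, and so did 3620 of all genes tested (24.9%). Tnp2 came closest. It was lower in M5 by 0.70 on the log2 scale (log2 difference -0.70, SE 0.164, limma adjusted p = 0.0584). Prm3 had a log2 difference of 0.49 (SE 0.143, adjusted p = 0.0957), Prm2 of 0.39 (SE 0.164, adjusted p = 0.203), Tnp1 of 0.17 (SE 0.155, adjusted p = 0.553) and Prm1 of 0.15 (SE 0.191, adjusted p = 0.664). When 1 library was left out, the last ones ranged from 0.056 to 0.31 for Tnp1 and from 0.018 to 0.32 for Prm1, both highest without M5 replicate 3. In that fit Prm2 had 0.53 (limma adjusted p = 0.067), Prm3 0.61 (adjusted p = 0.0553) and Tnp2 -0.60 (adjusted p = 0.084). The Tnp2 call depended on the settings, and its adjusted p ranged from 0.00128 to 0.248 over the alternatives, in which the log2 difference stayed between -0.85 and -0.40. The lowest adjusted p came with quantile normalization, where Tnp1 and Tnp2 took mirrored values (0.40 and -0.40). The next lowest was 0.0336, with all 5 groups in one fit. With the trend of each library with GC content removed, the Tnp2 difference was -0.56 (adjusted p = 0.248).

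M5 was also set against the other knockdowns. Tnp2 fell by 0.71 in M5 against M1 (log2 difference -0.71, SE 0.123, limma adjusted p = 0.027), and it was the 1 gene of the 5 that passed, against 6.75% of all genes. The call was lost without M1 replicate 1, M1 replicate 2, M1 replicate 3, M5 replicate 1 or M5 replicate 2 (adjusted p from 0.0546 to 0.132), and with the GC trend removed (log2 difference -0.65, adjusted p = 0.139). Without M5 replicate 3, Tnp2 was called (adjusted p = 0.0188), and so were Prm2 (0.30, adjusted p = 0.0463), Prm3 (0.62, adjusted p = 0.0496) and Tnp1 (0.29, adjusted p = 0.0449) as higher. In the fit with all libraries, Prm3 had a log2 difference of 0.50 (SE 0.149, adjusted p = 0.0983). Against M3 none of the 5 passed, where 0.0138% of all genes did, and Tnp2 had a log2 difference of -0.40 (SE 0.168, adjusted p = 0.35), or -0.54 without M3 replicate 3 (limma adjusted p = 0.146). M3 replicate 3 stood apart in these same Tnp2 values, so leaving it out was bound to widen the difference. That p is no further support.

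In M1 and in M3, none of the 5 genes passed against MNC, and limma called 0% and 0.00689% of all genes there. For M1 the log2 differences lay between -0.0045 for Prm3 and 0.22 for Prm2 (SE 0.0952, adjusted p = 0.819). For M3 the lowest was Tnp2 at -0.30 (SE 0.172, adjusted p = 0.561), and the others lay between -0.06 and 0.12. Without M3 replicate 3, Tnp2 was at -0.16, Prm1 at -0.19, Prm2 at -0.09 and Tnp1 at -0.075. Prm3 was then the lowest, at -0.34 (limma, unadjusted p = 0.0333, adjusted p = 0.757). With all libraries kept, 0 of the 5 differed in M1 or in M3 at an unadjusted p under 0.05, nor in M5 against M3. Of all genes tested, 862 (5.94%) differed in M1, 1369 (9.43%) in M3 and 2077 (14.3%) in M5 against M3.

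**Figure D2:**
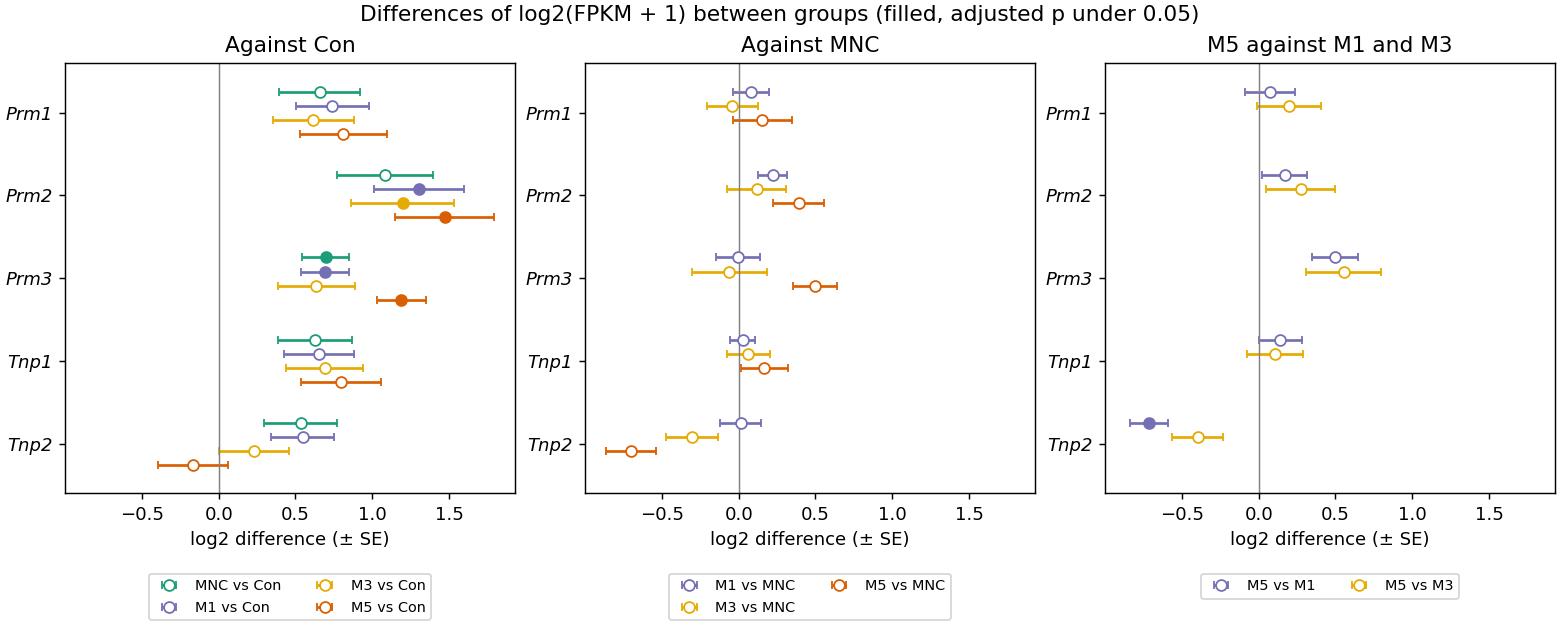
Differences of log2(FPKM + 1) with their SE (limma, n = 3 per group) for the 5 genes, against Con, against MNC, and for M5 against M1 and M3, with filled points for an adjusted p under 0.05. Most differences from Con lie near or above 0.5, while Tnp2 is the gene with negative differences for M5 in every panel, from -0.71 against M1 to -0.17 against Con.

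The ratio of 2 genes within a library does not depend on how that library was scaled, and the ratio of Tnp2 to Tnp1 separated M5 from the controls. It was 1.55, 1.57 and 1.43 in Con, 1.31, 1.45 and 1.51 in MNC, 1.47, 1.40 and 1.35 in M1, 1.34, 1.33 and 0.749 in M3, and 0.745, 0.761 and 0.83 in M5. M5 and M3 replicate 3 lay below 1, and the 11 other libraries lay above it. Between M5 and MNC the mean log2 ratio differed by -0.87, that is 0.548 times the MNC ratio, with no overlap of the groups (exact permutation test, two-sided, p = 0.1, n = 3 each). This p is the smallest that 3 against 3 libraries can give, and the adjusted value over the 16 ratio tests of the family is 0.2. The same holds for the other planned ratio comparisons with a p of 0.1. Between M3 and MNC it differed by -0.37 (exact permutation p = 0.3, n = 3 each), and by -0.09 without M3 replicate 3. Between M5 and M1 the difference was -0.86 (exact permutation p = 0.1, n = 3 each), in a comparison chosen after the ratios were seen, for which no adjusted p was computed. So was that of M5 and M3, which differed by -0.50 with overlapping groups (exact permutation p = 0.3, n = 3 each), or by -0.78 without M3 replicate 3. That library stood apart in this same ratio, so the values without it are descriptions only. A ratio does not cancel a trend with GC content, and the longest transcripts had 58.5% GC for Tnp2 and 49.2% for Tnp1. With that trend removed, the log2 difference between M5 and MNC was -0.56 for Tnp2 and 0.13 for Tnp1. Ratios were not computed in that setting.

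The ratio of Prm2 to Prm1 was lowest in Con. It was 0.671, 0.649 and 0.782 in Con, 0.973, 0.957 and 0.885 in MNC, 1.02, 1.08 and 1.00 in M1, 0.997, 1.01 and 1.14 in M3, and 1.08, 1.09 and 1.15 in M5. All 3 Con libraries were below all MNC libraries, and MNC was below each knockdown. The log2 ratio differed by 0.43 between MNC and Con and by 0.24, 0.14 and 0.16 between M5, M1 and M3 and MNC (exact permutation p = 0.1 for each, n = 3 each). Without M3 replicate 3 the last was 0.10. The log2 ratio of Prm2 to Tnp1 differed by 0.45 between MNC and Con, by 0.22 between M5 and MNC and by 0.20 between M1 and MNC, with no overlap (exact permutation p = 0.1 for each, n = 3 each), and by 0.055 between M3 and MNC, which overlapped (exact permutation p = 0.5, n = 3 each). The ratio of Prm1 to Tnp1 showed no such order and had means of 1.72 to 1.92 in the 5 groups.

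**Figure D3:**
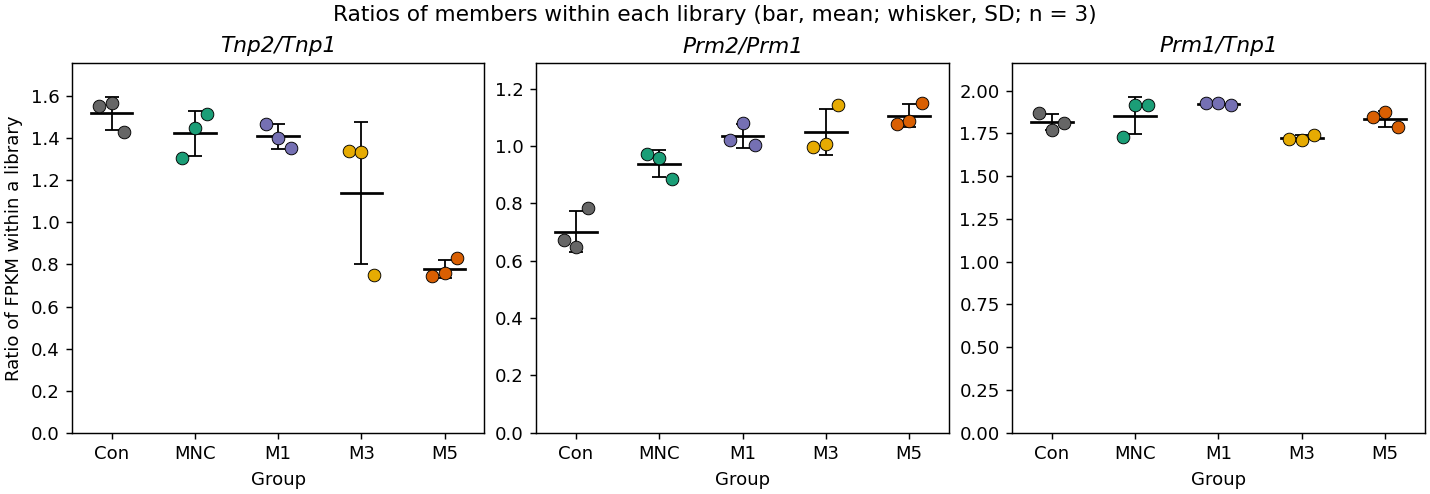
Ratios of FPKM within each library (axes from 0) for Tnp2 to Tnp1, Prm2 to Prm1 and Prm1 to Tnp1, with points for libraries, bars for means and whiskers for the SD of n = 3. The Tnp2 to Tnp1 ratio is 0.745 to 0.83 in M5 and 0.749 in M3 replicate 3, and 1.31 or more in all other libraries.

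Prm1, Prm2, Prm3 and Tnp1 varied together over the libraries. Over the 15 libraries, log2(FPKM + 1) of Prm1 and Tnp1 had a Pearson r of 0.987 and a Spearman rho of 0.989, and r was 0.952 without the 2 libraries farthest from the median of Prm1. The 6 pairs of these 4 genes had r from 0.879 to 0.987 (permutation test with 100000 resamples, adjusted p = 1.67e-05 for each over the 10 pairs, the smallest they can give for r here) and rho from 0.829 to 0.989 (permutation test, adjusted p from 5e-05 to 0.000433). After leaving out 2 libraries r was 0.827 to 0.952, and for deviations from the group means it was 0.807 to 0.992. The points share the scaling of their library. For the 4 pairs with Tnp2 the libraries fall into 2 sets, and the permutation test of r over 15 libraries gave adjusted p from 0.139 to 0.916, so no relation is read from r over all libraries. Within the 11 libraries outside M5 and M3 replicate 3, which were chosen from the ratio itself, r was 0.989 with Prm1, 0.973 with Tnp1, 0.936 with Prm2 and 0.904 with Prm3, as a description only.

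**Figure D4:**
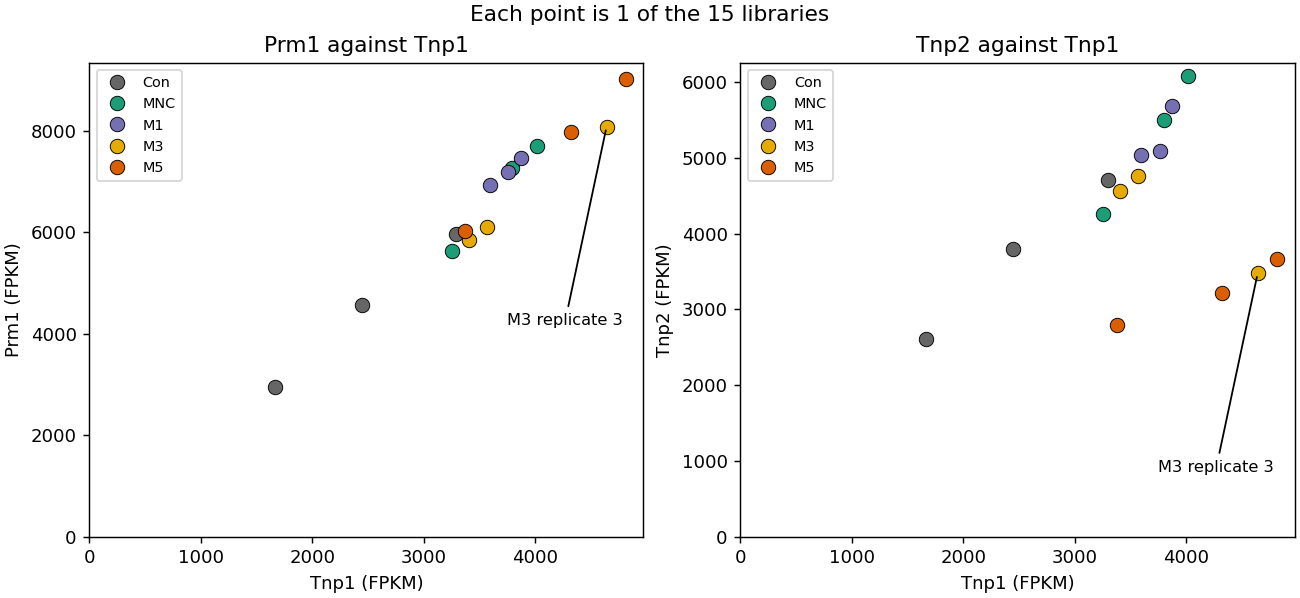
FPKM of Prm1 and of Tnp2 against FPKM of Tnp1 (linear axes from 0), each point being 1 of the 15 libraries, coloured by group. Prm1 follows Tnp1 in all libraries, while for Tnp2 the M5 libraries and M3 replicate 3 (2798 to 3661 FPKM) lie below the line of the others.

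The genes most like each member were found by Pearson r of log2(FPKM + 1) over the 15 libraries, as a description. For Prm1 and Tnp1 the closest was Klk1b8 (r = 0.975 and 0.976), and it was second for Prm2 (0.983), whose closest gene was Ubl4b (0.984). The fifth for Prm2 was Akap4 (0.981), a protein of the fibrous sheath of the sperm tail. For Prm3 the closest was Gm6760 (0.96). For Tnp2 the 5 closest were Ubxn6 (0.962), Sh3rf2, Pgap6, Tuba4a and Socs7 (0.948), none of which was among the 5 closest of the other 4 genes.

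Against Con, Prm2, Prm3 or both passed the test as higher in each of the 4 virus groups. In MNC, limma called Prm3 (log2 difference 0.70, SE 0.152, adjusted p = 0.0313), and Prm2 had 1.08 (SE 0.311, adjusted p = 0.0544). In M5, it called Prm2 (1.47, SE 0.322, adjusted p = 0.0234) and Prm3 (1.19, SE 0.158, adjusted p = 0.00643). In M1, it called Prm2 (1.30, adjusted p = 0.0212) and Prm3 (0.69, adjusted p = 0.0211), and in M3 it called Prm2 (1.20, adjusted p = 0.0467). Over all genes tested, 8.03% were called higher in MNC, 9.32% in M5, 10.3% in M1 and 7.01% in M3. Prm1 and Tnp1 had log2 differences of 0.62 to 0.81 in the 4 comparisons and did not pass. Without Con replicate 2 these were lower, at 0.38 and 0.37 for Prm1 and Tnp1 in MNC, 0.46 and 0.40 in M1, 0.34 and 0.44 in M3, and 0.54 and 0.54 in M5. Tnp2 had 0.53 in MNC, 0.55 in M1, 0.23 in M3 and -0.17 in M5, and none passed. These 4 comparisons share the Con libraries, and the median of all genes shifted by -0.10, -0.04, -0.12 and -0.13 in MNC, M5, M1 and M3.

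The calls against Con rested on few libraries. Con replicate 2 had the lowest value of all 5 genes, and without it the log2 difference of Prm2 was 0.76 in MNC, 1.15 in M5, 0.98 in M1 and 0.87 in M3. Prm2 kept its call in M5 and M1 without Con replicate 2. In M5 it lost it without Con replicate 1, M5 replicate 1 or M5 replicate 2 (adjusted p from 0.0586 to 0.0907), and in M1 without Con replicate 1, M1 replicate 1 or M1 replicate 3 (adjusted p from 0.0565 to 0.0667). Without M5 replicate 3, Prm1 (0.98, adjusted p = 0.0471) and Tnp1 (0.94, adjusted p = 0.0469) were also called higher in M5. Without Con replicate 3, Prm1 (0.97, adjusted p = 0.0222), Tnp1 (0.89, adjusted p = 0.0209) and Tnp2 (0.74, adjusted p = 0.0305) were also called higher in M1. Tnp1 was then called in M5 as well (1.03, adjusted p = 0.0478), while Prm1, Tnp1 and Tnp2 were not called in MNC or M3. The Prm3 call of M1 was lost without Con replicate 1, Con replicate 2, M1 replicate 1 or M1 replicate 3 (adjusted p from 0.0508 to 0.0679). In M3 the Prm2 call was lost without Con replicate 1, Con replicate 2 or any 1 of the M3 libraries, with adjusted p = 0.0977 without M3 replicate 3. The Prm3 call was kept in M5 in each fit that left out a library (adjusted p at most 0.0417), and in MNC it was lost without Con replicate 1 or 2 or MNC replicate 2 or 3.

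Genes of elongating spermatids, the cells that hold these mRNAs, were higher too. Of 10 such genes, 8 were called higher than Con in MNC, 10 in M1, 9 in M3 and 3 in M5, with medians of 0.83, 0.90, 0.77 and 0.58 on the log2 scale. Smcp, a protein of the sperm mitochondria, was at 1033 ± 237.0 FPKM (SD, n = 3) in Con and 2268 ± 132.4 in MNC (log2 difference 1.16, limma adjusted p = 0.0173), and Odf1, of the outer dense fibres of the tail, at 695.4 ± 158.7 and 1329 ± 63.5 (0.96, adjusted p = 0.0213). Round spermatid genes were called higher than Con in 5, 7, 5 and 3 of 10 cases in MNC, M1, M3 and M5, and spermatocyte genes were called lower in 6, 7, 1 and 3. Of all genes tested, 8.03%, 10.3%, 7.01% and 9.32% were called higher than Con in MNC, M1, M3 and M5. The shares called lower were 12.4%, 23.9%, 15.1% and 12.3%. In bulk RNA, more cells of a type and more RNA per cell cannot be told apart. The summed elongating spermatid genes were at 4940 to 7174 FPKM in Con, 9541 to 10466 in MNC, 10320 to 10695 in M1, 9882 to 10280 in M3 and 8152 to 10039 in M5. Epididymis markers were higher in Con than in MNC, M1 and M5 (values above), and their part in the result was not tested.

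**Figure D5:**
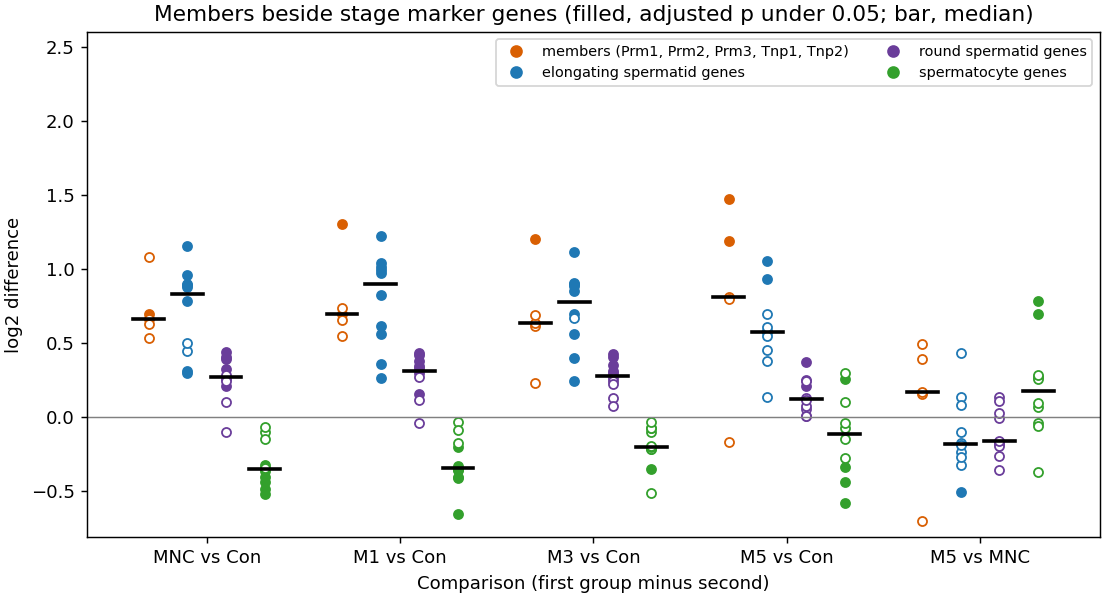
Differences of log2(FPKM + 1) of the 5 members and of 10 elongating spermatid, 10 round spermatid and 10 spermatocyte genes in 5 comparisons, each point being 1 gene, bars being medians and filled points having an adjusted p under 0.05. Against Con, members and elongating spermatid genes lie mostly above 0, with medians of 0.83 in MNC and 0.58 in M5 for the latter, and against MNC the M5 median of the elongating spermatid genes is -0.18.

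In M5 against MNC, 2.76% of all genes tested were called higher and 2.89% lower. Of the elongating spermatid genes, Odf1 was called lower (938.0 ± 91.2 FPKM in M5, 1329 ± 63.5 in MNC, log2 difference -0.51, limma adjusted p = 0.0337) and none was called higher, with a median of -0.18 over the 10. The highest was Cabs1, at 0.43 (adjusted p = 0.0564). None of the 10 round spermatid genes was called (median -0.16), while 2 of the 10 spermatocyte genes were called higher (median 0.17). The summed FPKM of the spermatocyte genes was lower in M5, at 2585 to 2853 against 3213 to 3358 in MNC, and that of the spermatogonium genes was 297.2 to 330.9 in M5 and 377.4 to 468.8 in MNC, with 0 of 8 called (median -0.12). The median of all genes was 0.03. Red blood cell genes were higher in M5, with 3 of 5 tested called and summed FPKM of 147.8 to 491.0 over the 7 genes of the list in M5, against 21.9 to 35.5 in MNC and 23.4 to 99.1 in M3, of which M3 replicate 3 was the highest. The value of 491.0 was that of M5 replicate 3, against 167.3 and 147.8 in M5 replicates 1 and 2. M5 replicate 3 also had the highest sums of Sertoli cell genes (1208 FPKM, against 697.6 and 777.5), Leydig cell genes (3221, against 1806 and 1549) and macrophage genes (141.4, against 63.5 and 75.1). Their part in the Tnp2 values was not tested.

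Of 10 transcription regulators, 3 were called lower in M5 than in MNC and none higher (median -0.07), where 2.89% of all genes were called lower: Sox30, a transcription factor of round spermatids, at 79.5 ± 3.5 FPKM (SD, n = 3) in M5 and 109.4 ± 8.66 in MNC (log2 difference -0.45, SE 0.0743, limma adjusted p = 0.0291), Kif17, which carries a coactivator of the factor CREM, at -0.36 (adjusted p = 0.0259), and Rfx2, a factor of spermatid genes, at -0.34 (adjusted p = 0.0364). In M5 against M1, where 3.52% of all genes were called lower and 3.23% higher, Rfx2 (-0.39, adjusted p = 0.0164) and Sox30 (-0.38, adjusted p = 0.0187) were called. Against Con, Kif17 was higher in MNC (0.68), M1 (0.55) and M5 (0.31), and Fhl5, the coactivator that Kif17 carries, was higher in MNC (0.29), M1 (0.29) and M3 (0.32), all called. Kdm3a, a histone demethylase needed for Prm1 and Tnp1 transcription, was called lower in MNC (-0.29) and M1 (-0.28), and Tbpl1 in MNC (-0.24). Sox30 was called higher in M1 (0.19), and Rfx2 lower in M5 (-0.36). Over all genes tested, 8.03%, 10.3%, 7.01% and 9.32% were called higher than Con in MNC, M1, M3 and M5. The shares called lower than Con were 12.4%, 23.9%, 15.1% and 12.3%.

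Of 10 genes for the storage and translation of spermatid mRNA, Larp1 was the 1 called in M5 against MNC (-0.27, limma adjusted p = 0.0341, median of the list -0.13), beside 5.65% of all genes. In M5 against M1, Tarbp2 (-0.36) and Larp1 (-0.32) were called lower, beside 3.52% of all genes. Tarbp2, which is needed to translate protamine mRNA, was also called lower against Con in M5 (-0.59), M3 (-0.32) and M1 (-0.23), and so was Piwil1, a binding protein of piRNAs, in M5 (-0.59), M1 (-0.41) and M3 (-0.41). Fxr1, an RNA-binding protein, was called higher than Con in MNC (0.30), M1 (0.38), M3 (0.41) and M5 (0.43). Ddx4, an RNA helicase of germ cells, was lower in MNC (-0.24) and M1 (-0.16), Larp1 in M5 (-0.29), and Paip2 was higher in M1 (0.27) and M3 (0.25), all called. Beside these calls against Con, 7.01% to 10.3% of all genes were called higher in the virus groups and 12.3% to 23.9% lower.

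Of 19 genes for the exchange of histones for protamines, 3 were called lower in M5 than in MNC and none higher (median -0.06), beside 2.89% of all genes called lower. Dot1l, a histone methyltransferase, was at 40.3 ± 1.15 FPKM in M5 and 58.5 ± 2.51 in MNC (log2 difference -0.53, limma adjusted p = 0.0126), Pygo2 at -0.50 (adjusted p = 0.0446), and Kat8, a histone acetyltransferase, at -0.27 (adjusted p = 0.0489). In M5 against M1, 5 were called lower, beside 3.52% of all genes, and of these Pygo2 (-0.56), Dot1l (-0.51) and Tssk6 (-0.47) fell most. Against Con, 4 were called higher in MNC, 5 in M1, 3 in M5 and 2 in M3, and 1, 4, 4 and 2 lower. Over all genes, 8.03%, 10.3%, 9.32% and 7.01% were called higher in these groups and 12.4%, 23.9%, 12.3% and 15.1% lower. Those higher included H2bl1, a testis histone H2B variant, in MNC (0.43), M1 (0.45) and M5 (0.52), Hils1, a linker histone of spermatids, in MNC (0.31), M1 (0.33) and M3 (0.24), Cdyl in MNC (0.23), M5 (0.24) and M3 (0.24), and Tssk6 (0.71) and H2al2a (0.49) in M1. Those lower included Pygo2 in M5 (-0.79), MNC (-0.29) and M1 (-0.23), Setd2 in M5 (-0.30), M1 (-0.29) and M3 (-0.28), Dot1l in M5 (-0.59), and Kat5 in M1 (-0.28) and M3 (-0.26). Against MNC, no gene of these 3 lists was called in M1 or in M3.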

How the data were processed

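RNA of 15 mouse testis libraries was measured. The authors enriched poly(A) RNA, sequenced it on an Illumina HiSeq instrument, mapped reads to reference genes with SOAPaligner 2.20 and deposited 1 table of FPKM values to 2 decimals. Their methods name RPKM for expression and FPKM for principal components, and the columns are named FPKM. The submitters' notes name mm10. No read counts were used here, and the absolute depth is unknown, since steps between low values, looked at with several settings, rested on too few genes to give a relative depth. Summed FPKM was 470243 to 513817 per library, and at least 20619 genes were above 0 in each.

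The labels mention sperm under extraction but testis in titles and tissue, and testis was taken. M5 replicate 2 was mapped by title, since its description points to M5 replicate 1. Of the gene IDs, 21143 (89.9%) matched RefSeq genes of GRCm38.p6.

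Values were tested as log2(FPKM + 1), a scale that understates changes of low genes, with limma 3.58.1 (lmFit, eBayes with trend) in R 4.3.3, for genes whose mean FPKM was at least 1. Each fit held the 2 groups compared, with no covariate, in 9 comparisons, and a moderated F test held all 5. Benjamini-Hochberg adjustment ran over all 14514 genes, tests were two-sided, with calls made at adjusted p below 0.05. The fits were tested on simulated data. Ratios used exact permutation tests (scipy 1.17.1, Python 3.11.15). Members and gene lists were chosen with earlier results of these data known. Genes named from the lists are the called ones, at most the 3 with the largest rise and the 3 with the largest fall per list and comparison, to which calls of Hils1, Cdyl and Pygo2 in other groups against Con and the value of Cabs1 were added after their values were seen. The symbol Hils1 was matched to the listed H1f9 by an alias added later. Alternatives were other pseudocounts, filters, scalings, variance models, thresholds, the replicate number as a block, a GC correction with GC known for 92.1% of genes tested, and leaving out each library. Correlations of the 10 pairs were planned over 15 libraries, and the description of Tnp2 pairs over 11 libraries and 2 ratio comparisons were added after the ratios were seen.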

Additional observations from a re-analysis of the deposited data

Results flagged for a closer look

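Tnp2 differed between the M5 and the M1 knockdown, which share the MNC controls, by a log2 difference of -0.71 (limma adjusted p = 0.027, n = 3 each), and this is the test of the difference of the 2 knockdown effects. All 3 M5 libraries were below all 3 M1 libraries. The adjusted p was 0.000971 to 0.159 over the alternatives. The lowest came with quantile normalization, where Tnp1 and Tnp2 took mirrored values (0.40 and -0.40), and the next lowest was 0.0145 with a filter at 5 FPKM.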

How the results depend on the processing

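Counts of members called moved with the settings. For M5 against MNC, where 0 passed, 1 passed with a filter at 5 FPKM, with FPKM rescaled to a fixed sum or with all 5 groups in one fit, and 4 with quantile normalization. For MNC against Con, where 1 passed, 0 passed with no filter, the replicate block or the study's threshold, 2 with a filter at 5 FPKM, with FPKM rescaled to a fixed sum or to a common sum without the members, and 3 with all groups in one fit, with 0 to 2 when a library was left out. For M5 against Con, where 2 passed, 1 passed with no filter or the replicate block, 3 with quantile normalization, 4 with all groups in one fit and 0 at the study's threshold, with 1 to 4 when a library was left out. For M1 against Con, where 2 passed, 0 passed with no filter or the study's threshold, 3 with a filter at 5 FPKM and 4 with all groups in one fit, with 0 to 5 when a library was left out. For M3 against Con, where 1 passed, 0 passed with no filter, median centring, quantile normalization, eBayes without trend, the replicate block or the study's threshold and 3 with all groups in one fit, with 0 to 1 when a library was left out. For M5 against M1, where 1 passed, 0 passed with no filter, median centring, the replicate block, GC removal or the study's threshold and 3 with quantile normalization, with 0 to 4 when a library was left out. For M5 against M3, where 0 passed, 0 passed with quantile normalization too, and 0 when a library was left out. For the F test, where 4 passed, 5 passed with a filter at 5 FPKM (Prm1 adjusted p = 0.0493), 2 passed with no filter, median centring, the replicate block or GC removal and 0 at the study's threshold, with 1 to 5 when a library was left out. In that test only Prm2, Prm3 and Tnp1 passed with quantile normalization. Only Prm2, Prm3 and Tnp2 passed with FPKM rescaled to a fixed sum or to a common sum without the members, or with eBayes without trend. With no filter more genes were tested, and the cause of the other changes was not tested.

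Quantile normalization gives libraries the same set of values, so genes at the top ranks exchange values. Under it the log2 difference of Prm1 became -0.11 for M5 and M1 against MNC and against Con, -0.075 for M3 against Con and -0.038 for M5 against M3, that of Tnp2 became -0.17 for MNC and M1 and -0.30 for M3 against Con, and the log2 ratio of Prm1 to Tnp1 became -0.11 for M1 against MNC and -0.35 for MNC against Con, and that of Prm2 to Tnp1 became -0.29 for M5 and -0.058 for M3 against MNC.

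Small differences against MNC changed sign. In M3 against MNC, Prm1 became 0.023 with centring and 0.075 with GC removal, and Prm3 became 0.0052 and 0.10. In M1 against MNC, Prm3 became 0.028 and 0.078. When 1 library was left out, differences in M1 against MNC ranged from -0.056 to 0.17 for Prm1, -0.12 to 0.12 for Prm3, -0.062 to 0.089 for Tnp1 and -0.13 to 0.12 for Tnp2. In M3 against MNC they ranged from -0.19 to 0.047 for Prm1, -0.091 to 0.24 for Prm2, -0.34 to 0.093 for Prm3 and -0.075 to 0.15 for Tnp1. Tnp2 ranged from -0.40 to 0.026 in M5 and -0.0011 to 0.42 in M3 against Con, Prm1 from -0.053 to 0.24 in M5 against M1, and Tnp1 from -0.0062 to 0.25 in M5 against M3. Log2 ratios ranged from -0.073 to 0.033 for Tnp2 to Tnp1 in M1, -0.062 to 0.012 for Prm1 to Tnp1 in M5 and -0.016 to 0.093 for Prm2 to Tnp1 in M3, all against MNC. Pearson r with Tnp2, from which no relation is read because the libraries fall into 2 sets, was 0.44 for Prm1, 0.33 for Prm2, 0.03 for Prm3 and 0.39 for Tnp1 over 15 libraries, turned to -0.038, -0.34, -0.49 and -0.22 without the 2 libraries farthest from the median, and was 0.23 to 0.68 for deviations from the group means.

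Same-numbered libraries of different groups did not deviate together, with 5 of 30 pairs above an r of 0.1 and a median of 0.00721 against 0.0124 for other pairs. No pairing by number was seen, so the replicate block is given here only. With 3 libraries per group, this check cannot show that same-numbered libraries share no batch. The depth is unknown, so no counting error can be given.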
